A study of Mus musculus with 5 samples.

Results

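The cassette exons described here are those at which most of the aligned reads fitted neither the transcript that holds the exon nor the transcript that skips it. For every event (a cassette exon with its 2 flanking exons) the authors' tables give reads in 4 classes: reads that fit the including isoform alone, the skipping isoform alone, both isoforms, or neither. The last class is written (0,0). An event was a member when it was in all 6 deposited tables, had at least 100 reads of the 4 classes in every library, and had at least 70% of its reads, summed over the 5 libraries, in class (0,0). Members were thus chosen by the measured (0,0) share, which is described here and not tested as a level. This rule gave 1759 members out of 5088 events with enough reads, or 34.6%, and out of 6331 events in all tables. The members lie in 1292 named genes, 15 members could not be named, 322 genes hold more than 1 member, and 648 members (36.8%) overlap another member and so share reads with it.

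The samples were left ventricle of C57BL/6 mice, and their RNA was read on an Illumina instrument. The STZ group of 3 samples came from mice injected intraperitoneally with streptozotocin in citrate buffer at 70 mg/kg once a day for 5 days from an age of 8 weeks. The Control group of 2 samples came from mice injected with citrate buffer on the same days, and all mice were 12 weeks old at sampling. Streptozotocin kills pancreatic beta cells, the source of insulin, and is a common way to make a mouse diabetic. The labels do not say that each sample is a separate animal, so the p-values measure the spread between these samples, which may be technical. The codes of the libraries match no sample title, and the libraries were taken as 3 STZ and 2 Control from the sizes of the groups on either side of the deposited comparisons. The codes are of 2 kinds, 1 in each group, so an effect of streptozotocin and an effect of handling the 2 kinds apart cannot be told apart.

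A cassette exon is an exon that the spliceosome either joins into a transcript or leaves out with its flanking introns. Psi is the share of transcripts at the locus in which the exon is kept, and the program MISO estimates it from the reads that fit an isoform; reads of class (0,0) carry no weight for either isoform. In heart muscle, developmentally and hormonally controlled cassette exons are known in genes of the sarcomere and of calcium handling, and reads at a locus can also stem from introns, other exons of the gene, or genes that lie within its introns.

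Sequences of 8 members are printed because their values carry the comparisons that follow: the (0,0) share was higher in STZ for Nfat5 and Ggcx and lower for Dhx32, Ints10, Tnnt2 and Kcnip2, and Psi was lower in STZ for Hnrnph1 and Uhrf2. They are cassette exons of GENCODE M21 transcripts matched by the lengths of exon and introns, read 5′ to 3′ on the transcribed strand from GRCm38. Capitals mark the first 3 and last 3 bases, which border the splice junctions, and the exon of Tnnt2, 9 nt long, has no capitals. Their places in GRCm38 are chr8:107295581-107295634 on the plus strand for Nfat5, chr6:72427898-72428049 (plus) for Ggcx, chr7:133748843-133749036 (minus) for Dhx32, chr8:68825052-68825129 (plus) for Ints10, chr1:135850379-135850387 (plus) for Tnnt2, chr19:45797091-45797186 (minus) for Kcnip2, chr11:50381459-50381597 (plus) for Hnrnph1 and chr19:30056235-30056494 (plus) for Uhrf2. All 8 are wholly coding in the transcript matched. Every other position in the text is in mm9, the build of the deposited tables.
Nfat5: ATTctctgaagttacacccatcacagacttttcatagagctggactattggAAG
Ggcx: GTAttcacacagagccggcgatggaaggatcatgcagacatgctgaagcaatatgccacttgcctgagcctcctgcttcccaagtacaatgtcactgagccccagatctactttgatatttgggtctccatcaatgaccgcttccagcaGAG
Dhx32: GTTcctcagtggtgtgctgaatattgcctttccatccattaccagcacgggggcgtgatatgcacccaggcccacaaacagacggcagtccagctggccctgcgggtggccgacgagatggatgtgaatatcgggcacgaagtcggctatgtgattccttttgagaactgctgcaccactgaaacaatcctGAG
Ints10: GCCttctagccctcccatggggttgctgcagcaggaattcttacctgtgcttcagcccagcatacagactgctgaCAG
Tnnt2: caagctcag
Kcnip2: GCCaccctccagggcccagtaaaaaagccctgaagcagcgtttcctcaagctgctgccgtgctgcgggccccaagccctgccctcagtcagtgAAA
Hnrnph1: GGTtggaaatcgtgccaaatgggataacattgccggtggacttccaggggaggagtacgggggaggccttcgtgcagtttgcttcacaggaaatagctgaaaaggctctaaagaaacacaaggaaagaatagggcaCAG
Uhrf2: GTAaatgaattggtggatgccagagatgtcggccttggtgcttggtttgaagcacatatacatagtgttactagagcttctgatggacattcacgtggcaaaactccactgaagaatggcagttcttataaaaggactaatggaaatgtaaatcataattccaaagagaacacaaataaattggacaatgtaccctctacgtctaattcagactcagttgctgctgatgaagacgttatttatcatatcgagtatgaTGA

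The events of a library summed to 14913419, 14534868 and 12692236 reads in STZ A, STZ B and STZ C and to 17154734 and 20963751 reads in Control A and Control B. Class (0,0) took 49.1%, 47.2% and 46.9% of these reads in the STZ libraries and 46.2% and 45.5% in the Control libraries. The STZ mean of 47.7% ± 1.21 (SD, n = 3) lay 1.90 percentage points above the Control mean of 45.8% ± 0.507 (SD, n = 2), with p = 0.2 in a two-sided exact permutation test over 10 splits, which cannot go below 0.1. Among marker genes with an event, the summed RPM (reads at the events, all classes, per 1000000 event reads of the library) ranged from 37990 to 48240 in STZ and from 42780 to 43950 in Control for cardiomyocytes (5 of 10 markers had an event). Endothelial markers (2 of 6) summed to between 3164 and 5388 in STZ and between 1439 and 1604 in Control, and smooth muscle markers (2 of 5) to between 759 and 963 in STZ and between 2620 and 2749 in Control. Fibroblast markers (1 of 6, Fn1) summed to between 83.8 and 124 in STZ and between 147 and 161 in Control, and leukocyte markers (2 of 5) to between 58.6 and 132 in STZ and between 70.6 and 82.3 in Control. No erythroid or adipocyte marker had an event. The endothelial (Emcn and Pecam1), smooth muscle (Myh11 and Smtn) and fibroblast (Fn1) sums did not overlap between the groups. How many of all events did not overlap in RPM was not counted. The part of these sums in the results below was not tested. In bulk RNA, fewer cells of a type and less RNA per cell cannot be told apart.

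Members held 27.7% of all event reads and 52.4% of all (0,0) reads. A median member had 3592 reads over the 5 libraries, against 5122 for the other 3329 events. Members lay over the whole range that the rule allows. In bands of unequal width, 532 had a (0,0) share from 70% to 80%, 535 from 80% to 90%, 548 from 90% to 99%, and 144 of 99% or more. In steps of 5 points, the fewest were 248 from 70% to 75% and the most were 396 from 95% to 100%. In 24 members of 21 genes every read fell in class (0,0), with between 1111 and 560443 reads over the 5 libraries. Within a library the median share of a member was 86.6%, 87.1% and 86.7% in STZ and 86.6% and 86.5% in Control, so the medians of the 5 libraries lay close together.

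Members were short in exon and long in intron. The median cassette exon of a member was 89 nt, against 109 nt in other events, and the median sum of both flanking exons was 268 nt, against 614 nt. The median sum of both introns was 5885 nt, against 4013 nt. The shorter the flanking exons, the more events were members: 78.0% of events with less than 200 nt of flanking exon (495 of 635), 48.5% from 200 to 300 nt, 31.9% from 300 to 500 nt, 25.6% from 500 to 1000 nt, and 11.1% from 1000 nt up (144 of 1298). Exon lengths that are a multiple of 3, which keep the reading frame, made up 50.9% of members (896 of 1759) and 44.3% of other events. These are descriptions of overlapping events and were not tested.

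**Figure D1:**
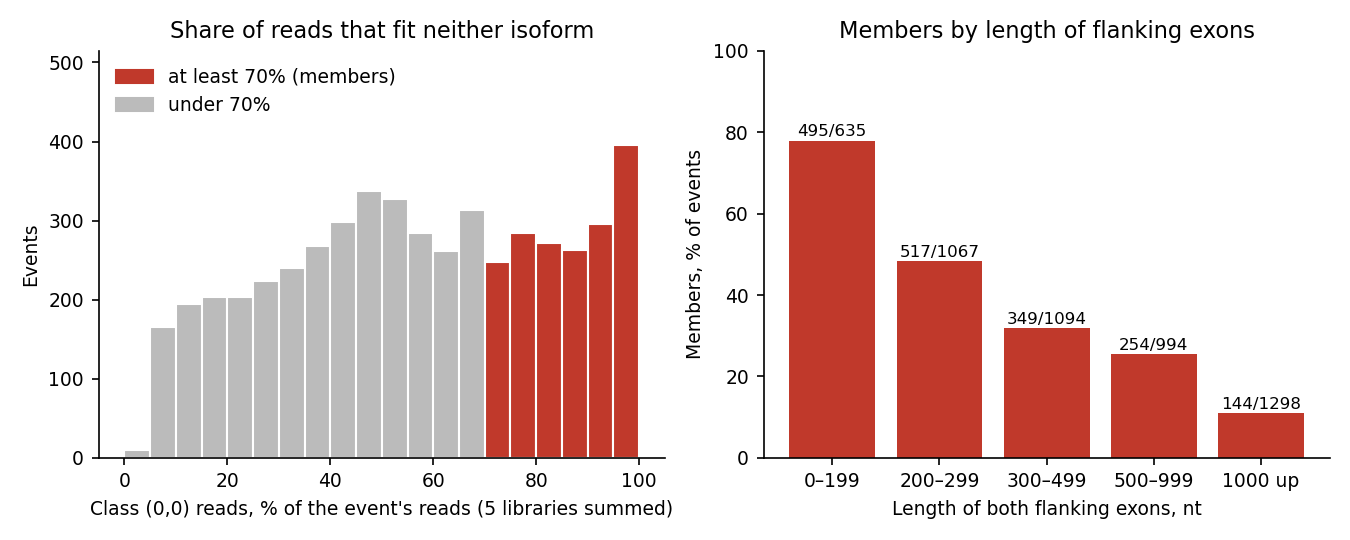
Left, the number of events (vertical axis) by the percentage of their reads in class (0,0), summed over the 5 libraries (horizontal axis), with the 1759 members in red. Right, the percentage of events that are members by the summed length of both flanking exons in nt, with members over events above each bar; it runs from 78.0% under 200 nt to 11.1% from 1000 nt up.

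Introns of members more often held other annotated features, in counts not adjusted for intron length. The median sum of both introns was 5885 nt in members and 4013 nt in other events. It was 16010 nt in the 144 members with a share of 99% or more. The part of intron length in these counts was not tested. Of the 1507 members with a match in GRCm38, 667 (44.3%) had other exons of the same gene inside the introns of the event, against 26.2% of 3053 other events. Exons of another protein-coding gene lay over the introns of 103 members (6.84%, against 3.64%), exons of a non-coding gene or pseudogene over those of 241 (16.0%, against 8.88%), and a small RNA gene inside those of 75 (4.98%, against 2.52%). A transcript annotated with a retained intron was as frequent in members (12.9%) as in other events (12.5%). None of the first 4 features was annotated for 690 members (45.8%), against 65.7% of other events. Of the 120 matched members with a (0,0) share of 99% or more, 24 (20%) had exons of another protein-coding gene over their introns and 46 (38.3%) those of a non-coding gene or pseudogene. Members were less often wholly coding (56.7%, against 65.3%) and more often not coding at all (28.6%, against 18.7%).

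Several members with shares of 99% or more have exons of the same or another gene inside their introns; the examples given were chosen after their values were seen. The Cmss1 event (chr16:57323577-57323656) spans Filip1l, which encodes a filamin A-interacting-protein-like protein. The Mb event, of an exon that is not coding, has 2 other exons of Mb, the gene of the oxygen store myoglobin, inside its introns along with exons of Apol6, and had 30418, 33640 and 25052 reads in STZ and 76996 and 77009 in Control. The event of 9330175M20Rik spans Cavin2, a coat protein of caveolae, and had 15981, 19020 and 17167 reads in STZ against 36764 and 39040 in Control. The event of Airn, the long non-coding RNA that runs antisense through Igf2r, spans exons of Igf2r and had 8593, 6106 and 5519 reads in STZ against 24399 and 26768 in Control. In these last 3, every STZ library held fewer reads than either Control library. How many of all events did so was not counted. These reads are not scaled for depth, and the Control libraries are the larger. A read over 2 overlapping genes cannot be given to either from these tables, and the use of strand is not given in the sources used here.

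Processed pseudogenes of ribosomal proteins lay over the introns of 7 members and of 6 other events. The 3 of them with most reads are described first. The Pax6os1 event, of an RNA antisense to Pax6, holds Rpl10-ps1 and had 43199, 52174 and 46648 reads in STZ and 30885 and 38774 in Control, with no read in any class but (0,0). The Nup93 event, of a nuclear pore protein, holds Rpl10-ps5 and had 29207, 35933 and 32108 reads in STZ and 20420 and 26194 in Control. The 6030443J06Rik event holds Rpl17-ps5 and had 26599, 30964 and 26362 reads in STZ and 19246 and 22058 in Control. Of the 7 members, 2 are overlapping events of Tcf12. The member with fewest reads, Med15, had 584, 445 and 433 reads in STZ and 477 and 521 in Control. How many of all events held more reads in every STZ library was not counted. The reads given are not scaled for depth, and the STZ libraries are the smaller. Reads of a pseudogene and of its parent gene are near-identical, so these counts are uncertain.

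The reads that decide Psi were few in members. Informative reads (including isoform alone plus skipping isoform alone) had a median over members of 43, 32 and 29 in the STZ libraries and 47 and 58 in the Control libraries, against 165, 152 and 141 and 216 and 278 in other events. Psi differed more within a group where the share was higher. The median difference of Psi between Control A and Control B was 0.02 in members with a share from 70% to 80%, 0.03 from 80% to 90%, 0.05 from 90% to 99% and 0.16 from 99% up, against 0.01 in other events. The median range of Psi over the 3 STZ libraries was 0.05, 0.08, 0.13 and 0.29 in the same bands of share, and 0.04 in other events. In the 24 members with every read in class (0,0), the tables still list Psi, from 0.08 to 0.93 with a median of 0.515, and the STZ libraries had a median range of 0.355 and the Control libraries a median difference of 0.165. No skipping-isoform read was seen in any library in 371 members, and no including-isoform read in 140.

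**Figure D2:**
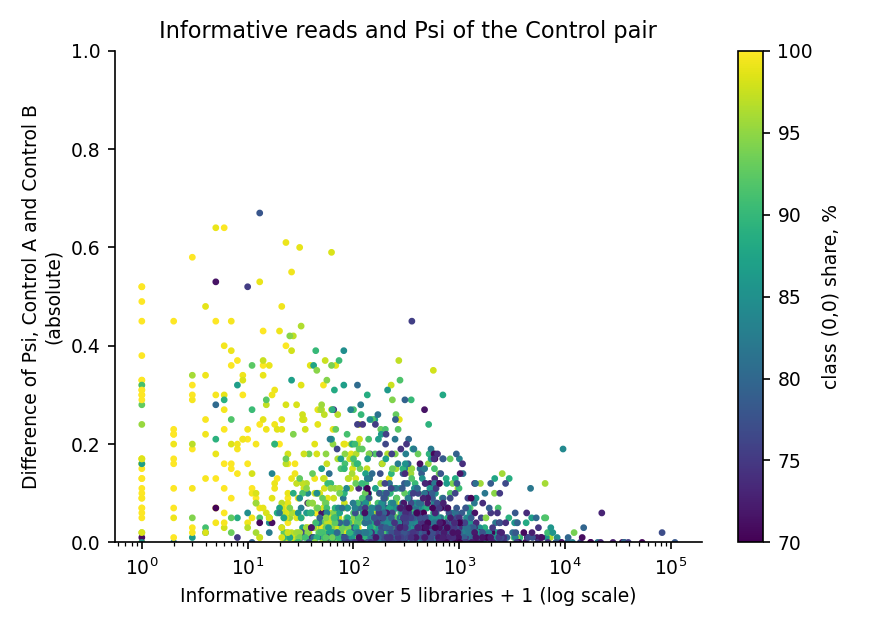
Each point is a member: informative reads over the 5 libraries plus 1 (horizontal axis, log scale) against the absolute difference of Psi between Control A and Control B (vertical axis); colour gives the (0,0) share in percent. Differences reach above 0.6 at few informative reads and lie mostly under 0.2 from 1000 reads up; the point at 0.19 with 9545 informative reads is Hadhb.

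Hadhb, the beta subunit of the mitochondrial trifunctional protein of fatty acid oxidation, has a Psi that varied despite many informative reads. Its 100-nt exon (chr5:30493205-30493304) had 1869, 1052 and 905 including-isoform reads in STZ and 2495 and 3224 in Control, and no skipping-isoform read or read that fits both. Psi was listed as 0.52, 0.27 and 0.43 in STZ and 0.38 and 0.57 in Control, so the 2 Control libraries differed by 0.19 and the 3 STZ libraries spread over 0.25. Its flanking exons are 45 nt each.

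The (0,0) share was called different in both directions, and large changes were about as frequent in members as in all events. With a limma fit on the logit share over all 5088 events, 627 members (35.6%) were called at an adjusted p under 0.05, of which 285 were higher and 342 lower in STZ. Over all 5088 events, 29.1% were called, 11.7% higher and 17.4% lower. Since the logit of a share near 100% also moves with depth when only a few reads fit an isoform, calls were also counted with a change of at least 5 percentage points: 212 members (12.1%) were higher and 249 (14.2%) lower, against 10.02% and 14.3% of all events. The count of members lower in STZ was thus near the background, and the count higher slightly above it. With a change of at least 10 points, 7.39% of members were called higher and 7.11% lower, against 7.1% and 8.8% of all events. The median change over all members was -0.03 percentage points. The libraries of the groups did not overlap in 1016 members (57.8%), against 57.7% of all events.

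Leaving out a Control library, which leaves the other one assumed to vary like the STZ libraries, lowered these counts by more than 1.5 times. Without Control A 143 members were called higher and 166 lower, of which 119 and 123 by at least 5 points, and without Control B 138 and 181, of which 105 and 139. In the median member the share differed by 1.19 percentage points between the Control libraries, by 1.53 to 2.07 between pairs of STZ libraries, and by 3.25 to 3.49 between an STZ and a Control library.

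Members called for the share were picked by the ratio of its terms, (0,0) reads and fitting reads. That these terms differ in their change is thus set by the choice, and the values describe which term was called. In the 285 members with a higher share in STZ, the median log2 STZ/Control of (0,0) RPM was 0.73 and that of reads fitting an isoform was -0.56. By limma, (0,0) reads rose in 163 of them and fell in 23, and fitting reads rose in 25 and fell in 123. In the 342 members with a lower share the medians were -0.88 and 0.32, with (0,0) reads up in 19 and down in 220, and fitting reads up in 114 and down in 53. Over all 1759 members, (0,0) RPM rose in 390 (22.2%) and fell in 583 (33.1%), against 19.4% and 34.3% of all events (53.7% in either direction). Fitting reads rose in 282 (16.0%) and fell in 421 (23.9%), against 17.04% and 26.7% of all events (43.8% in either direction). These splits turn on scaling: with median-of-ratios size factors, under which the median log2 STZ/Control of all events is -0.03 in place of -0.21 for (0,0) reads and 0.02 in place of -0.15 for fitting reads, the members split into 498 up and 460 down and into 388 up and 344 down. The share itself does not depend on the scaling of a library. Without Control A the counts were 223 up and 331 down for (0,0) reads and 117 and 161 for fitting reads, and without Control B 206 and 357, and 119 and 178.

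**Figure D3:**
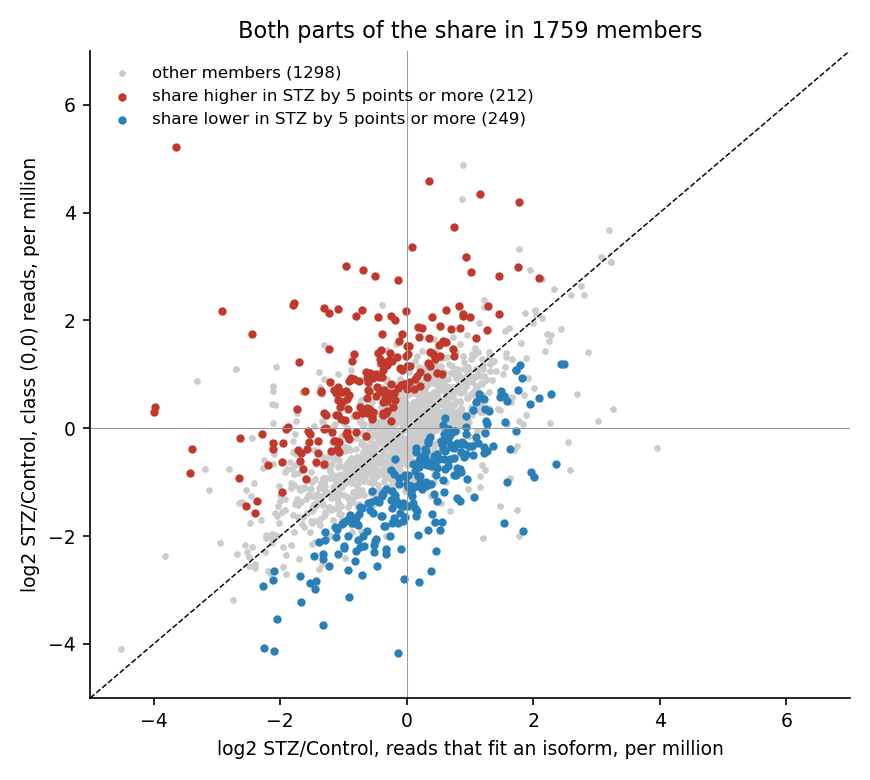
Each point is a member: log2 STZ/Control of RPM of reads that fit an isoform (horizontal axis) against the same for class (0,0) (vertical axis), from limma. The 212 members called higher in STZ by at least 5 points (red) lie above the dashed line of equal change, and the 249 called lower (blue) below it. These sides follow from the choice of members by their share. The 1298 others are grey.

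The 8 largest rises of the share among called members without overlap were in Nfat5, Ggcx, Nat10, Rin2, Tbp, Entpd6, Ebpl and Fggy. The 54-nt exon of Nfat5, a transcription factor of the response to osmotic stress, had a (0,0) share of 86.6%, 89.0% and 85.2% in STZ and 25.4% and 26.9% in Control. The STZ mean was 86.9% ± 1.96 and the Control mean 26.1% ± 1.04 (SD, n = 3 and n = 2), with a limma adjusted p of 0.000101, and the groups lay far apart. Class (0,0) gave 100.4, 134 and 78.2 RPM in STZ and 4.66 and 3.77 in Control (log2 STZ/Control 4.59), while reads that fit an isoform stood at 15.5, 16.5 and 13.6 in STZ and 13.7 and 10.3 in Control. Psi of this exon was 0.79, 0.83 and 0.82 in STZ and 0.86 and 0.90 in Control, with an adjusted p of 0.136. No other gene was annotated over the introns, whose lengths are 1682 and 29004 nt, and the downstream flanking exon is 4671 nt long.

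In Ggcx both terms and Psi moved. Ggcx encodes the carboxylase that activates vitamin K-dependent proteins, and its 152-nt exon had shares of 96.7%, 96.3% and 97.2% in STZ and 46.8% and 45.3% in Control (adjusted p 4.38e-05). Its (0,0) reads were 77.6, 58.8 and 57.4 RPM in STZ against 13.9 and 14.3 in Control, and its fitting reads 2.68, 2.27 and 1.66 in STZ against 15.8 and 17.3 in Control. Psi was 0.29, 0.36 and 0.46 in STZ and 0.84 and 0.91 in Control (adjusted p 0.0271), on 18, 18 and 10 informative reads in STZ and 221 and 314 in Control. That Psi call was lost without any one of the 5 libraries, with adjusted p between 0.0620 and 0.112, and in a quasi-binomial model (0.0812), whereas the share call was kept.

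The other 6 of the 8 largest rises had higher (0,0) reads in every STZ library. Nat10, an RNA cytidine acetyltransferase, had shares of 91.6%, 92.1% and 91.8% in STZ and 47.8% and 46.8% in Control for its 123-nt exon at chr2:103597828-103597950. Rin2, an exchange factor for Rab5, had 91.8%, 87.7% and 88.2% in STZ and 51.7% and 43.9% in Control for a 152-nt exon. Tbp, the TATA-box-binding protein, had 86.8%, 92.8% and 87.0% in STZ and 55.5% and 49.3% in Control for a 49-nt exon that is not coding. Fitting reads were called higher as well in Rin2 (log2 1.16; lost without Control A, Control B or STZ B, adjusted p up to 0.0992), were called lower in Nat10 (log2 -0.69; lost without any one library but STZ A, up to 0.178), and did not pass the test in Tbp (log2 -0.71, adjusted p 0.190).

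Entpd6, a nucleoside diphosphatase, had shares of 92.6%, 87.9% and 87.3% in STZ and 38.1% and 29.0% in Control. Ebpl, a relative of the sterol isomerase EBP, had 89.7%, 88.4% and 83.3% in STZ and 37.4% and 37.3% in Control. Fggy, a carbohydrate kinase, had 93.4%, 95.8% and 94.6% in STZ and 66.5% and 59.5% in Control. In all 3 the fitting reads were called lower in STZ, with log2 STZ/Control of -1.80, -1.31 and -1.23; the call of Fggy was lost without Control B (adjusted p 0.0813).

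**Figure D4:**
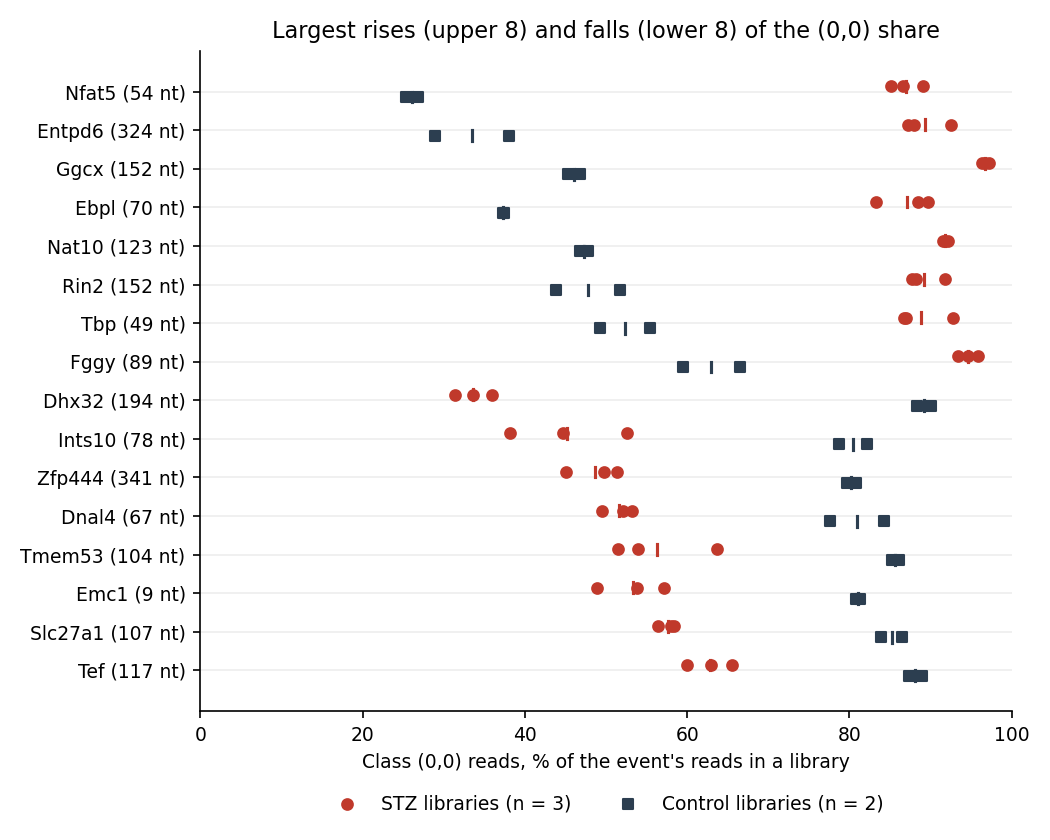
Class (0,0) share in percent of the event's reads (horizontal axis) for the 8 members with the largest rises and the 8 with the largest falls, each row a gene with its exon length; red circles are the 3 STZ libraries, dark squares the 2 Control libraries, and vertical ticks the group means. No member has overlapping groups; Nfat5 is at 85.2% to 89.0% in STZ and 25.4% to 26.9% in Control, and Dhx32 at 31.4% to 36.0% in STZ and 88.4% to 90% in Control.

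Class (0,0) reads were called lower in all of the largest falls, and in some of them the fitting reads were too. The 194-nt exon of Dhx32, a DEAH-box helicase, had shares of 31.4%, 36.0% and 33.6% in STZ and 90% and 88.4% in Control, with means of 33.6% ± 2.33 and 89.2% ± 1.16 (SD, n = 3 and n = 2; adjusted p 4.38e-05). Its (0,0) reads were 29.8, 46.0 and 37.7 RPM in STZ and 674 and 665 in Control (log2 -4.17). Its fitting reads overlapped between the groups, at 65.2, 81.7 and 74.5 RPM in STZ and 74.9 and 87.5 in Control. Psi was 0.95, 0.97 and 0.97 in STZ and 0.96 and 0.98 in Control (adjusted p 0.698), and a non-coding gene, Gm45670, is annotated over the introns.

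The 78-nt exon of Ints10, a subunit of the Integrator complex that processes small nuclear RNAs, had shares of 52.6%, 44.7% and 38.2% in STZ and 78.7% and 82.1% in Control. In Ints10 (0,0) reads fell (log2 -3.64) and so did its fitting reads (log2 -1.32). Psi was 0.02, 0.18 and 0.18 in STZ and 0.45 and 0.50 in Control, on 0, 5 and 7 including-isoform reads in STZ and 59 and 64 in Control. By a rule applied here to the authors' deposited values, Psi of this exon was lower in STZ. The rule asks for a Psi difference of the same sign and at least 0.20, with a Bayes factor of at least 10, in every deposited comparison. The limma adjusted p of Psi was 0.220, so limma did not call it.

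Slc27a1, a fatty acid transport protein, had shares of 58.4%, 58.0% and 56.4% in STZ and 86.5% and 83.9% in Control at a 107-nt exon that is not coding (chr8:74093241-74093347). It was the member of this group in which (0,0) reads fell (log2 -1.30) while fitting reads were called higher (log2 0.79), a call lost without Control A (adjusted p 0.129) or Control B (0.0705). Psi fell too, at 0.22, 0.25 and 0.24 in STZ and 0.42 and 0.46 in Control (adjusted p 0.0134), a call lost without Control B (adjusted p 0.0571) or STZ C (0.0577).

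Tef, a transcription factor of the circadian output, had shares of 65.5%, 59.97% and 63.0% in STZ and 88.9% and 87.3% in Control. Class (0,0) gave 237, 127 and 150 RPM in STZ and 647 and 936 in Control. Fitting reads of Tef overlapped between the groups, at 125, 84.8 and 88.2 RPM in STZ and 80.6 and 136 in Control. Emc1, a subunit of the endoplasmic reticulum membrane complex, has a 9-nt exon with shares of 53.9%, 48.9% and 57.2% in STZ and 80.8% and 81.3% in Control. Psi of Emc1 did not overlap between the groups but was not called, at 0.67, 0.52 and 0.54 in STZ and 0.71 and 0.78 in Control (adjusted p 0.162).

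Dnal4, a dynein light chain, had shares of 52.1%, 49.5% and 53.3% in STZ and 77.6% and 84.3% in Control, and its Psi fell to 0.04, 0.08 and 0.06 in STZ, against 0.41 and 0.37 in Control (adjusted p 0.0200), a call lost without STZ C (0.0771), Control A (0.101) or Control B (0.0984). Zfp444, a zinc finger protein, had 49.7%, 45.1% and 51.3% in STZ and 79.7% and 80.8% in Control. Tmem53, a transmembrane protein, had 63.6%, 51.5% and 53.9% in STZ and 86.1% and 85.3% in Control. Fitting reads were called lower in Dnal4 (log2 -0.71) and Tmem53 (log2 -0.91) but not in Zfp444 (log2 -0.46, limma adjusted p 0.0890). The call of Dnal4 was lost without STZ B (limma adjusted p 0.0637), Control A (0.217) or Control B (0.0679). That of Tmem53 was lost without STZ C (limma adjusted p 0.0548), Control A (0.175) or Control B (0.0869). In all 16 members with the largest changes the share call was kept without any one library, with an adjusted p of at most 0.0188, and the groups did not overlap by the rule that named them.

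The 10 members with most reads include genes of the sarcomere. The 9-nt exon of Tnnt2, cardiac troponin T, which ties the troponin complex to tropomyosin, had shares of 70.1%, 71.4% and 70.9% in STZ and 82.2% and 83.1% in Control (adjusted p 0.000617). In Tnnt2 (0,0) reads were called lower (log2 -0.49) and fitting reads higher (log2 0.48); both calls were lost without STZ B, STZ C, Control A or Control B (adjusted p up to 0.224 and 0.226), while the share call was kept. Psi was 0.75, 0.70 and 0.71 in STZ and 0.67 and 0.69 in Control, with an adjusted p of 0.283, and the STZ libraries spread over 0.05. No other exon or gene is annotated inside its introns of 918 and 323 nt.

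Titin, the giant spring protein of the sarcomere, has a member at a 2646-nt exon (chr2:76745365-76748010). Its share was 96.9%, 97.6% and 97.5% in STZ and 89.3% and 87.1% in Control (adjusted p 0.000345). The including-isoform reads of this Ttn exon were 1668, 1056 and 617 in STZ and 3416 and 5384 in Control, while its skipping isoform had 1 read in all 5 libraries. Psi was 0.83, 0.71 and 0.56 in STZ and 0.90 and 0.92 in Control, with an adjusted p of 0.138. The groups did not overlap in Psi, but the 3 STZ libraries themselves spread over 0.27.

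Abi1, an actin regulator of the WAVE complex, had many times more reads in STZ than in Control. Its 76-nt exon (chr2:22886620-22886695) had 162555, 168082 and 167079 reads in STZ and 5177 and 11892 in Control, or 10880, 11540 and 13130 (0,0) RPM in STZ and 287 and 554 in Control (log2 4.89). Reads fitting an isoform of Abi1 stood at 23.7, 24.4 and 29.9 RPM in STZ and 14.9 and 13.2 in Control. The share was 99.8% in each STZ library and 95.1% and 97.7% in Control. This event was named by its skipping junction alone, so the genes over its introns were not analysed here.

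**Figure D5:**
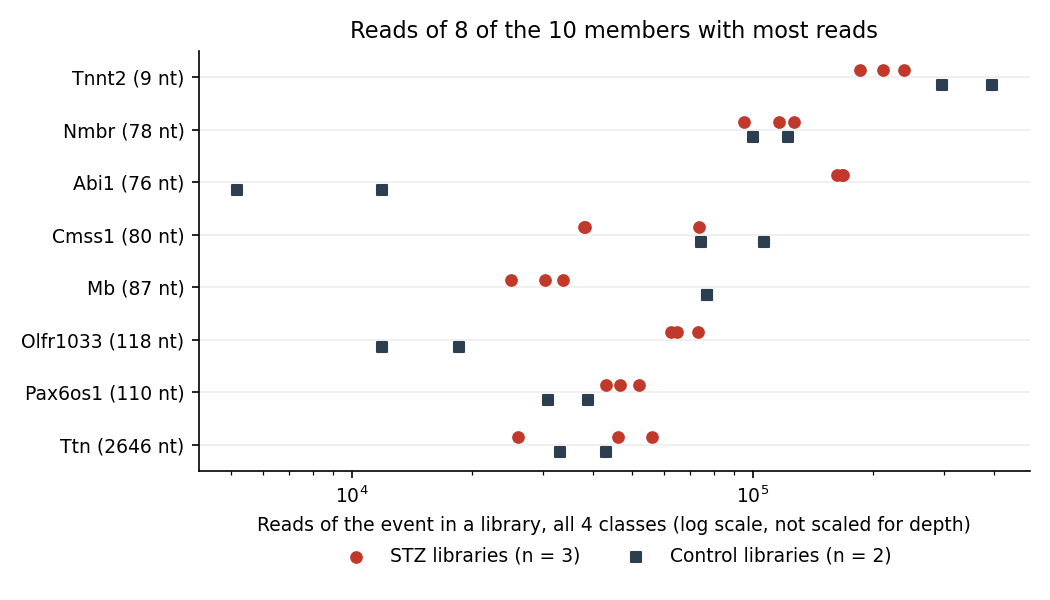
Reads of all 4 classes in each library (horizontal axis, log scale, not scaled for depth) for 8 of the 10 members with most reads, each row a gene with its exon length; red circles are the 3 STZ libraries and dark squares the 2 Control libraries. Abi1 runs from 162555 to 168082 in STZ and lies at 5177 and 11892 in Control; groups overlap in Nmbr and Ttn.

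The event of Olfr1033, an olfactory receptor gene, had shares of 90.5%, 89.4% and 89.98% in STZ and 77.7% and 77.8% in Control (adjusted p 0.000359), with (0,0) reads up by a log2 of 2.82 and fitting reads by 1.46. Nearly all its fitting reads fitted both isoforms (6953, 6661 and 6493 in STZ, 2645 and 4107 in Control), so its Psi rests on at most 4 informative reads in a library. Without the reads that fit both isoforms the share call of Olfr1033 was lost (adjusted p 0.175).

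Cmss1, Mb, Nmbr and Pax6os1 are members whose Psi can hardly be read. In Cmss1 the including-isoform reads were 12, 10 and 9 in STZ and 112 and 100 in Control with no skipping-isoform read in any library, and Psi was listed as 0.64, 0.46 and 0.44 in STZ and 0.98 and 0.97 in Control. The Psi of Mb rests on at most 2 informative reads in a library, that of Nmbr, a neuropeptide receptor, on at most 1, and that of Pax6os1 on none. The share calls of Mb (adjusted p 0.00471), Nmbr (0.000223) and Pax6os1 (0.0469) stand at a share of 100% to within 0.03 points, and that of Pax6os1, with no fitting read, is set by the depth and the 0.5 reads added; it was lost without STZ B, STZ C, Control A or Control B (adjusted p up to 0.277). All 3 share calls were lost in a quasi-binomial model (adjusted p 0.816 for Mb, 0.758 for Nmbr and 1.0 for Pax6os1), in percentage points (0.993, 1.0 and 1.0) and without reads that fit both isoforms (0.308, 0.312 and 0.0754). In all, 40 members were called with a change under 1 percentage point, and 27 of the 111 members with fewer than 10 fitting reads in every library were called.

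Psi could be tested in 1201 members with at least 10 informative reads in every library; the other 558 had a median difference of Psi between the Control libraries of 0.07, against 0.03 in those tested. By limma 72 members (6.00%) had a higher and 83 (6.91%) a lower Psi in STZ, against 4.84% and 10.1% of all 4769 tested events (14.95% in either direction). The median member changed by -0.15 on the logit scale and the median event by -0.22. With a change of at least 0.1 the counts were 48 and 60, against 3.06% and 7.05% of all events. Groups did not overlap in 519 members (43.2%), against 42.9%. Without Control A 19 members were called higher and 33 lower, without Control B 23 and 32, without STZ B 24 and 32, and without STZ C 32 and 40. Of the 1201 members, 62 were called for both share and Psi, 402 for the share alone, 93 for Psi alone and 644 for neither.

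The largest rises of Psi were in Srsf11, Abhd18, Mtf2, Rdh13, Gprasp1 and Picalm. Srsf11, a splicing factor of the SR family, had a Psi of 0.88, 0.90 and 0.93 in STZ and 0.24 and 0.27 in Control at a 109-nt exon, on 93, 91 and 93 informative reads in STZ and 16 and 15 in Control, with shares of 98.1% to 98.6% and 99.3% (adjusted p of Psi 0.00815, and 0.0553 without Control A). Gprasp1, which sorts G-protein-coupled receptors, had 0.81, 0.79 and 0.78 in STZ and 0.32 and 0.29 in Control (adjusted p 0.00470). Mtf2, a partner of Polycomb repressive complex 2, had 0.89, 0.91 and 0.89 in STZ and 0.37 and 0.29 in Control (adjusted p 0.00660). Psi of Gprasp1 and Mtf2 stayed called without any one library.

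Picalm, a clathrin assembly protein, had a Psi of 0.66, 0.51 and 0.46 in STZ and 0.07 in both Control libraries at its 150-nt exon (adjusted p 0.0177), on far more informative reads: 3416, 1816 and 1231 in STZ and 192 and 224 in Control. Its share overlapped between the groups, at 78.5%, 71.2% and 66.7% in STZ and 71.5% and 69.9% in Control. The Psi call of Picalm was lost without STZ B, Control A or Control B (adjusted p 0.0677 to 0.0986). Rdh13, a retinol dehydrogenase of mitochondria, had 0.82, 0.64 and 0.72 in STZ and 0.14 and 0.21 in Control (adjusted p 0.0294), a call lost without any one library (up to 0.129). Abhd18 had 0.52, 0.70 and 0.72 in STZ and 0.03 and 0.04 in Control (adjusted p 0.0133), a call lost without STZ B, Control A or Control B (up to 0.0771).

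The largest falls of Psi, besides Ggcx, were in Hnrnph1, Uhrf2, Prrc2c, Il15ra and Fam168a. The 139-nt exon of Hnrnph1, an RNA-binding protein that itself regulates splicing, had a Psi of 0.31, 0.29 and 0.34 in STZ and 0.90 and 0.85 in Control (adjusted p 0.00761), with 191, 116 and 101 skipping-isoform reads in STZ and 11 and 29 in Control. The 260-nt exon of Uhrf2, a ubiquitin ligase that reads modified DNA, had 0.40, 0.38 and 0.40 in STZ and 0.90 and 0.88 in Control (adjusted p 0.00267). The shares of Hnrnph1 (87.6% to 88.7% in STZ, 84.6% and 86.2% in Control) and Uhrf2 (72.6% to 82.1% and 77.7% to 79.3%) were not called (that of Hnrnph1 was with array weights, 0.0317, in a quasi-binomial model, 0.0409, and without reads that fit both isoforms, 0.00770), and both Psi calls were kept without any one library. Neither length is a multiple of 3.

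Prrc2c, an RNA-associated protein, had a Psi of 0.16, 0.20 and 0.19 in STZ and 0.75 and 0.60 in Control (adjusted p 0.0210). Il15ra, the receptor chain of interleukin 15, had 0.39, 0.41 and 0.33 in STZ and 0.78 and 0.86 in Control (adjusted p 0.0197), and both of its terms fell, (0,0) reads by a log2 of -1.98 and fitting reads by -2.09. Fam168a had 0.48, 0.28 and 0.32 in STZ and 0.75 in both Control libraries at a 27-nt exon (adjusted p 0.0493). These calls were lost without any STZ library for Prrc2c (up to 0.0784), without any STZ library or Control B for Il15ra (up to 0.0680), and without STZ B, STZ C or either Control library for Fam168a (up to 0.195). The call of Fam168a was also lost with no minimum of informative reads (0.0557), with Psi clipped at 0.05 (0.0740) and with no variance trend (0.0504).

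The rule applied to the authors' deposited table asked for a Psi difference of one sign and at least 0.20 in all 6 comparisons. Each also needed a Bayes factor of 10 or more. By this rule 26 members were higher and 26 lower in STZ (1.48% of 1759 each), against 1.297% and 2.54% of all 5088 events (3.83% in either direction). Of these, 21 and 18 were also called by limma. The 5 that could not be tested for too few informative reads were Sgk3, Whrn, Rsrc2, Iffo1 and Zfp280c, named after their values were seen. The 9-nt exon of Iffo1, an intermediate-filament-family protein, had a Psi of 0.77, 0.73 and 0.92 in STZ and 0.21 and 0.25 in Control on 16, 7 and 17 informative reads in STZ and 20 and 23 in Control, and shares of 94.3%, 95.6% and 94.9% in STZ and 69.9% and 71.8% in Control. The 33-nt exon of Whrn, the scaffold protein whirlin, had a Psi of 0.17, 0.07 and 0.24 in STZ and 0.75 and 0.77 in Control, on 6, 9 and 8 informative reads in STZ and 41 and 62 in Control.

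Members of 6 gene lists, written with results of these data known, are set against all 5088 events. Of these events 34.6% were members, 11.7% had a higher and 17.4% a lower share. Of the 4769 events tested for Psi, 4.84% had a higher and 10.1% a lower Psi. The percentages count events, and a gene can hold several members. The members came from 6 genes for the sarcomere and Z-disc, 5 for calcium handling and excitation, and 8 for mitochondrion and fuel use. They came from 23 genes for RNA-binding and splicing, 7 for hosts of small nucleolar RNAs, and 16 for the ribosome and translation factors. In the list of the sarcomere and Z-disc 14 of 20 events were members, of which 1 had a higher share (7.14%) and 4 a lower one (28.6%); Psi was higher in 0 and lower in 1 (8.33%) of 12 tested. The median change of the share over these 14 was -0.28 percentage points, against -0.03 over all members. Ablim1, an actin-binding protein, was lower in both: its share was 89.8%, 89.99% and 89.3% in STZ and 96.2% and 94.7% in Control, and its Psi 0.04, 0.05 and 0.06 in STZ and 0.21 and 0.23 in Control (adjusted p 0.00194 and 0.0136). Ldb3, which anchors the Z-disc, overlapped in its share (94.3%, 97.4% and 97.8% in STZ, 96.1% and 94.7% in Control) and had a Psi of 0.94, 0.97 and 0.95 in STZ and 0.71 and 0.83 in Control (adjusted p 0.0513). The Psi call of Ablim1 was lost without STZ B (adjusted p 0.0600), Control A (0.0741) or Control B (0.0797).

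In the list of calcium handling and excitation 10 of 14 events were members, of which 1 had a higher share (10%, against 11.7% of all events) and 3 a lower one (30%, against 17.4%), with a median change of 0.06 percentage points; 3 could be tested for Psi. Kcnip2, an accessory subunit of the potassium channels of the transient outward current, had shares of 52.8%, 55.3% and 58.5% in STZ and 78.9% and 81.6% in Control (adjusted p 0.000675). Class (0,0) gave 70.5, 77.1 and 43.0 RPM in STZ and 386 and 380 in Control, and its fitting reads 63.1, 62.3 and 30.5 in STZ and 103 and 85.4 in Control (adjusted p 0.0632). Psi of its 96-nt exon fell to 0.51, 0.50 and 0.51 in STZ, against 0.72 and 0.78 in Control (adjusted p 0.0173). Psi of this exon was also lower by the rule applied here to the authors' deposited differences and Bayes factors. The limma call was lost without any single STZ library (up to 0.0713). Kcnip2 was the member of this list tested for Psi that was called.

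Camk2g, Slc8a1 and Camk2d showed the other end of the range. The 69-nt exon of Camk2g, the gamma subunit of a calcium/calmodulin-dependent kinase, had 3, 1 and 1 informative reads in STZ and 8 and 0 in Control and a share of at least 99.59% in every library. The 15-nt exon of Slc8a1, the sodium/calcium exchanger, had 1 informative read in all 5 libraries, with flanking exons of 18 and 69 nt. Camk2d, the delta subunit of the kinase, had shares of 94.3%, 92.1% and 92.7% in STZ and 91.6% and 92.9% in Control, which overlapped. None of these 3 had a called share.

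In the list of mitochondrion and fuel use 12 of 30 events (40%) were members, near the 34.6% of all events. Their share was higher in 2 (16.7%, against 11.7%) and lower in 3 (25%, against 17.4%), with a median change of -1.14 percentage points, and Psi was higher in 3 (25%, against 4.84%) and lower in 2 (16.7%, against 10.1%) of 12. Slc25a3, the mitochondrial phosphate carrier, had shares of 73.7%, 75.9% and 75.4% in STZ and 69.4% and 70.1% in Control (adjusted p 0.0258; lost without STZ B, STZ C or either Control library, up to 0.150, with no variance trend, 0.0808, and without reads that fit both isoforms, 0.133). Its Psi was 0.97 in each STZ library and 0.98 in each Control library, a called difference of 0.01 (adjusted p 0.000141) that is the smallest step of the deposited values. Mff, a receptor for mitochondrial fission, had shares of 93.7%, 92.9% and 93.2% in STZ and 93.6% and 93.7% in Control, and Idh3b, a subunit of isocitrate dehydrogenase, 72.7%, 76.3% and 75.01% in STZ and 76.8% and 79.9% in Control, neither called.

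RNA-binding and splicing genes had 34 members among 96 events (35.4%, near the 34.6% of all events), with 4 shares higher (11.8%, against 11.7%) and 14 lower in STZ (41.2%, against 17.4%), and Psi higher in 7 (22.6%, against 4.84%) and lower in 3 (9.68%, against 10.1%) of 31. Their median change of the share was -1.03 percentage points, against -0.03 over all members and -0.37 over all 5088 events. Hnrnpa2b1, an RNA-binding protein of splicing and transport, had shares of 80.4%, 80.5% and 81.1% in STZ and 88.0% and 87.5% in Control (adjusted p 0.00146). Luc7l2, a component of the U1 particle, had 93.7%, 92.0% and 91.4% in STZ and 97.4% in both Control libraries (adjusted p 0.000913). Son, a speckle protein, had 95.5%, 94.9% and 94.8% in STZ and 96.8% and 96.7% in Control (adjusted p 0.00753, 0.0665 without Control A, and 0.0612 in percentage points). In these 3 the groups did not overlap, and every STZ library was the lower. Hnrnph1, also among the members of this list with most reads, went the other way without overlap. Its share was 87.6% to 88.7% in STZ and 84.6% and 86.2% in Control, and was not called (limma adjusted p 0.0572). Groups did not overlap in 57.7% of all events.

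Genes that host small nucleolar RNAs in their introns had 11 members among 26 events (42.3%), with 1 share higher and 1 lower (9.09% each). Genes of the ribosome and of translation factors had 27 among 83 (32.5%), with 2 shares higher and 2 lower (7.41% each), so both lists lay below the 11.7% and 17.4% of all events. Psi was lower in 1 of 10 and in 1 of 23 members tested and higher in 0 of each, and the median change of the share was -0.11 percentage points in both. The 2 lists share genes. Eif4a2, an RNA helicase of translation initiation with Snord2 inside an intron of the event, had shares of 68.8%, 71.0% and 71.2% in STZ and 77.4% and 76.9% in Control (adjusted p 0.0102), a call lost without Control A (0.0805) or Control B (0.0613). Rpl13a, a protein of the large ribosomal subunit, had shares of 79.0%, 81.5% and 81.0% in STZ and 78.1% and 79.5% in Control, while both its terms were called higher (log2 1.13 and 0.97), the fitting reads not without Control A (adjusted p 0.0651) or Control B (0.0932). Rpl7a likewise had 80.8%, 84.3% and 84.2% in STZ and 80.7% and 81.6% in Control, with log2 changes of 1.01 and 0.81. In Rpl10 the share overlapped too (84.7%, 86.4% and 86.3% in STZ, 84.9% and 86.5% in Control), and Psi was 0.62, 0.47 and 0.51 in STZ and 0.78 and 0.81 in Control (adjusted p 0.0477, lost without STZ B, STZ C, Control A or Control B, up to 0.203). Rpl18 and Rps24, of the large and small subunits, were not called for share or Psi.

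At the threshold of 70%, the members just inside were Mlf1, Metap1d and Gucd1, and the events just outside were Lama2, Ntan1 and Fgfr1op2. Gucd1 had shares of 73.5%, 68.7% and 70.1% in STZ and 70.0% and 69.1% in Control, and Fgfr1op2 66.6%, 65.8% and 71.3% in STZ and 73.2% and 70.8% in Control, so single libraries lay on both sides of it. In any library, between 111 and 126 members were under 70%.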

How the data were processed

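Samples, groups and sequencing are as given in the report, per the labels. The submitters' processing notes name CASAVA 1.8.2, TopHat and the build mm9. The authors made the 6 deposited tables with MISO, each setting an STZ library against a Control library, per the file headers; the MISO version, event annotation, event filter and strand setting: not given in the sources used here. Psi, as the authors deposited it, is a fraction, per the file headers. Read counts in 4 classes are deposited by the authors for each event and library, a unit recorded as other, as is the difference of Psi. Each Bayes factor deposited by the authors is a ratio. Each library had equal values wherever it recurs (0 differences). Not used were 36 columns, which hold interval bounds of Psi and assigned reads.

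Libraries are called STZ A, B and C and Control A and B by the number in their codes. Events were named by matching exon and intron lengths to GENCODE M21 on GRCm38 with a check of position (5694 events), through an exon in common with an event already named (337), by the files (198) or by the skipping junction (73), and 29 stayed unnamed; length match and file gave the same gene for 97.7% of 3192 events. Context in the introns comes from that annotation.

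The logit (0,0) share, with 0.5 reads added to each side, log2 RPM (reads per 1000000 event reads) with the same addition, and the logit of Psi clipped to the range from 0.01 to 0.99, were compared in limma 3.58.1 (R 4.3.3), STZ minus Control, two-sided, with a prior variance that follows the reads and Benjamini-Hochberg adjustment over all events tested at 0.05. Events needed 100 reads in every library for the share and RPM, and for Psi only 10 informative reads in every library. The scripts were tested on simulated data. The rule for the members used the share summed over both groups, so the share itself is described and only differences between groups are tested. The text names the 10 members with most reads (2 are not reported here), the 8 largest rises and 8 largest falls of the share and 6 and 6 of Psi among called members without overlap, 3 events on each side of 70%, and up to 4 members of each gene list. Members and lists were chosen with earlier results of these data known. Alternatives were other read minimums, pseudocounts, clips, variance models, weights and scalings, a quasi-binomial model, the share in percentage points, the share without reads that fit both isoforms, and leaving out each library. Python 3.11.15 with pandas 2.3.3, scipy 1.17.1 and matplotlib 3.10.9 did the rest.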

Additional observations from a re-analysis of the deposited data

How the results depend on the processing

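The share in percentage points gave 211 members lower in STZ (342 on the logit scale), array weights gave 645 members with lower fitting reads (421), a quasi-binomial model gave 117 members higher and 127 lower for Psi (72 and 83), and a difference of 0.10 in the authors' deposited table gave 42 lower (26); the cause was not tested. Leaving out each library gave 138 to 330 members with a higher and 166 to 368 with a lower share; 105 to 230 and 123 to 262 by at least 5 points; 206 to 422 with more and 331 to 715 with fewer (0,0) reads; 117 to 329 and 161 to 559 for fitting reads; 19 to 50 and 32 to 57 for Psi; and 1.21 to 2.32 points for the whole-library share. The counts by at least 5 and by at least 10 points were added after seeing the data. Differences of the logit share that turned sign, none of them called in the report, were those of Rdh13 (-0.0343), Picalm (-0.344), Uhrf2 (0.178) and Rps24 (0.134) without reads that fit both isoforms, Camk2g (0.362) and Slc8a1 (0.475) in the quasi-binomial model and in percentage points (0.0718 and 0.0386), and Camk2d (-0.0172) with a pseudocount of 5. Leaving out a library gave -0.0806 to 0.2195 for Picalm, -0.2053 to 0.0686 for Uhrf2, -1.904 to 0.9025 for Camk2g, -0.00876 to 0.1875 for Camk2d and -0.0536 to 0.0716 for Rpl10. Over the named events, 480 of 521 results under the other settings, and 283 of 340 leaving out a library, kept direction and side of the threshold. No paired analysis was possible because the columns carry no replicate number. Few informative reads limit Psi in members, and with 2 Control libraries their spread is poorly known.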
